A study of Mus musculus with 2 samples.

Results

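The metallothioneins Mt1 and Mt2, the zinc-sensing transcription factor Mtf1 and 7 zinc transporter genes were examined in activated mouse T cells with and without triptolide, 10 of the 18193 genes that had a probe set of their own. The members were chosen by measured values of this same comparison, because Mt1 and Mt2 were among the genes with the lowest ratio. All their ratios are therefore descriptions, and no test was made. A probe set belonged to a member if the platform annotation gave it exactly 1 gene symbol, which held for 21 of the 45037 probe sets. Primary T cells, kept in culture for 18 h, were stimulated with antibodies to CD3, the signalling part of the T cell receptor, and to CD28, a costimulatory receptor. One group received nothing more, and the other also received triptolide at 50 ng/ml. Triptolide is a plant compound that blocks transcription through a subunit of TFIIH. Each group was 1 array, so there is no error from replicates, and the labels name neither the strain, age and number of mice nor the time of exposure to the compound.

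Zinc inside a cell is held at a very low free level, and most of it is bound to protein. Metallothioneins are small cysteine-rich proteins that bind zinc and copper, and their genes are switched on when free zinc rises, through MTF1, which binds short promoter sequences named metal response elements. Proteins of the Slc30a (ZnT) family move zinc out of the cytosol, across the plasma membrane or into vesicles, while those of the Slc39a (ZIP) family move it into the cytosol. Zinc entering the cytosol after receptor engagement is known to modulate signalling in T cells.

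The promoters of Mt1, Mt2 and Slc30a1 are shown because these were the members at least 2-fold lower with triptolide, and because all are textbook targets of MTF1. The bases are the 250 before the annotated start in RefSeq (build GRCm38.p6), at chr8:94178839-94179088 for Mt1, chr8:94172368-94172617 for Mt2 and chr1:191906531-191906780 for Slc30a1, all on the + strand. Capitals mark the core of the metal response element, searched as TGCACNC or TGCGCNC on both strands, so that a core on the other strand reads as its reverse complement.
Mt1: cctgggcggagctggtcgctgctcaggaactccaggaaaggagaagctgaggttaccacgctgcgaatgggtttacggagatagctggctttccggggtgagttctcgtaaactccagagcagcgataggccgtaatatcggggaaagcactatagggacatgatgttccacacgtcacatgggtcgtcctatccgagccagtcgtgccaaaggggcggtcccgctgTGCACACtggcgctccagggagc
Mt2: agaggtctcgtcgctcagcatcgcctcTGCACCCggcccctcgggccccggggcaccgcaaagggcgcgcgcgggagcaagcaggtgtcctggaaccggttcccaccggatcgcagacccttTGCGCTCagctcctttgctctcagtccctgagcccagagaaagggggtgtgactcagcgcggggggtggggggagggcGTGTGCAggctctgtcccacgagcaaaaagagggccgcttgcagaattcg
Slc30a1: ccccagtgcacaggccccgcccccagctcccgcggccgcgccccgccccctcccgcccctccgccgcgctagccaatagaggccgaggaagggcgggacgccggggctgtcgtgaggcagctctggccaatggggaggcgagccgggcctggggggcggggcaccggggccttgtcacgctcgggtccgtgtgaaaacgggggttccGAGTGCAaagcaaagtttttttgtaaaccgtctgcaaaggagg

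The search window ran 50 bases past the start, 300 in all, and the marked cores did not overlap each other. Mt1 held 3 cores in this window, which need not be all that its promoter has. TGCACAC lay at -23 to -17 from the start, TGCACTC at 3 to 9 and TGCGCTC at 21 to 27. Mt2 held 4 cores, 3 of them before the start and TGCGCAC on the other strand at 5 to 11. Slc30a1 held 2 cores, TGCACTC at -43 to -37 and TGCGCTC at 31 to 37, both on the other strand. Among 32851 RefSeq windows of the same length, 25.7% held at least 1 core, 7.11% at least 2, 1.97% at least 3 and 0.517% at least 4. Of the other members, Slc30a5 held 1 core and the windows of Mtf1, Slc30a6, Slc30a7, Slc39a7 and Slc39a10 held none of these letters. The TATA box hexamer TATAAA, found in 13.6% of all windows, was present in that of Slc30a6. A window was found for 9 of the 10 members, Slc39a6 being the other. A match is a run of letters and not evidence of binding. Bases further than 50 past the annotated start were not searched, so cores or a TATA box there would be missed. Whether the annotated start is the one used in these cells was not tested.

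**Figure D1:**
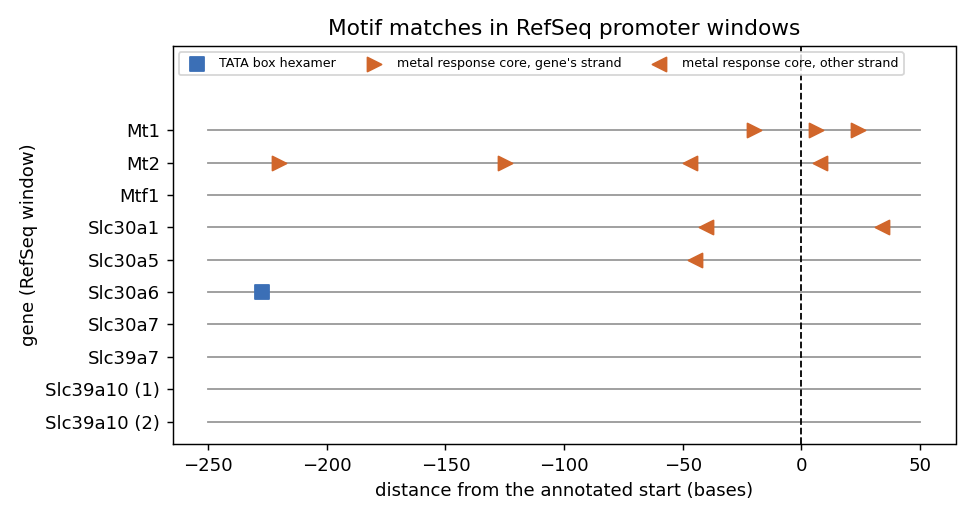
Metal response element cores (triangles, pointing along the strand) and the TATA box hexamer (square) by distance in bases from the annotated start, 1 line per RefSeq promoter window of 300 bases. Mt2 holds 4 cores, Mt1 3, Slc30a1 2 and Slc30a5 1.

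Signals are MAS5 intensities, a linear measure of brightness per probe set. The background floor was a signal of 118, the 95th percentile of 87 probe sets of chemosensory receptor genes on the array where it was higher, and signals under it were raised to it before ratios were taken. The median signal over all probe sets was 95.5 on the stimulated and 87.6 on the triptolide array. The T cell markers were well above the floor, with Cd3d at 11426 and 9733 and Thy1 at 14194 and 10065. Of the T cell marker list, 9 of 10 genes were on the array and all 9 were detected, that is, above the floor on at least 1 array. Detected were also 5 of 6 B cell markers, 4 of 7 myeloid, 3 of 4 natural killer, 4 of 5 neutrophil and 0 of 3 erythroid markers with a probe set. Summed signals without and with triptolide were 59747 and 41249 for the T cell list, 1463 and 1475 for B cell, 809 and 1168 for myeloid, 6026 and 4728 for natural killer, 540 and 646 for neutrophil and 186 and 118 for erythroid markers. Pax5, Itgam, Cd14, Fcgr3, Ncr1, S100a9, Hba-a1, Alas2 and Klf1 were under the floor on both arrays. By a difference of 2-fold or more, 3 of the 9 T cell markers were lower with triptolide and 0 higher (median log2 ratio -0.50), against 12.5% lower and 5.63% higher over all 10968 detected genes. The T cell markers ran from Cd8a at -1.60 to Cd3e at 0.46 (2881 to 3962). Cd2 was at -1.34, Cd4 at -1.28 and Cd3g at 0.18, and of the 9, 7 lay below 0 and 2 above. In the other lists, Cd22 of the B cell markers was lower by that rule (-1.05). Of the 5 detected B cell markers, 3 lay below 0 and 2 above, with Cd79a the highest at 0.95. Lyz2 of the myeloid (at least 2.19-fold) and Mpo of the neutrophil markers (at least 2.03-fold) were higher. The part of these cells in the values below was not tested. In such bulk RNA, fewer cells of a type and less RNA per cell cannot be told apart.

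With triptolide, both metallothioneins were more than 10-fold lower, the zinc exporter gene Slc30a1 was 2.39-fold lower on the brighter of its probe sets, and the zinc importer gene Slc39a10 was 2.64-fold higher. The other 6 members lay within 2-fold. Here and below, higher and lower are relative to the other RNA on each array, since the amount of RNA per cell was not measured. All 10 members were detected, and their brightest probe sets were above the floor on both arrays, so none of these ratios is a bound. By the rule of a difference of 2-fold or more, 3 of the 10 were lower and 1 was higher. Over all detected genes the rule gave 12.5% lower and 5.63% higher. Since the members were chosen on this contrast, nothing is read from their share. The median log2 ratio was -0.16 over the members, -0.11 over the 8 members other than Mt1 and Mt2, and -0.16 over all detected genes, a shift against which single ratios should be read.

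**Figure D2:**
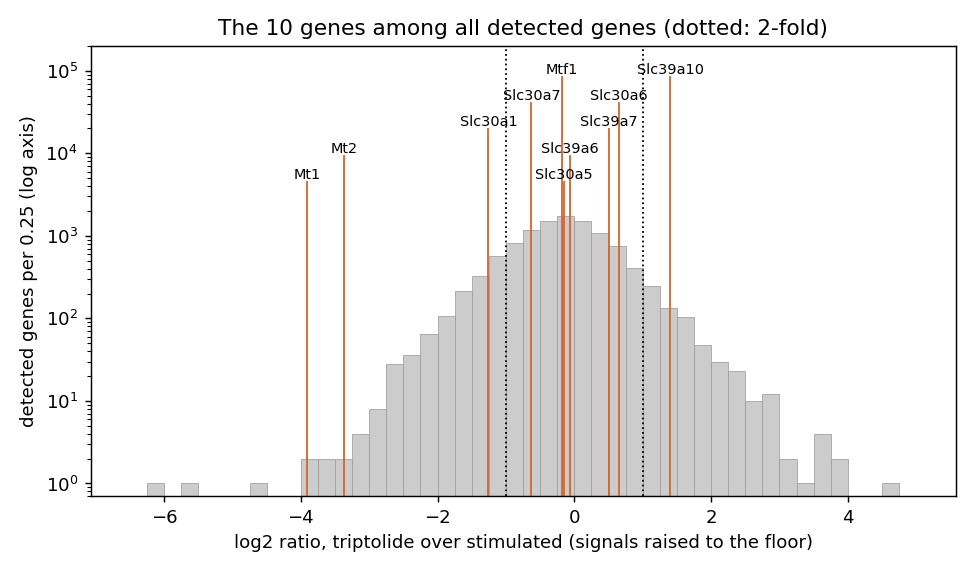
Histogram of log2 ratios (triptolide over stimulated, x axis) of the 10968 detected genes (y axis, log scale, genes per bin), with a line at the ratio of each of the 10 genes and dotted lines at 2-fold. Mt1 and Mt2 lie at the far left, at -3.90 and -3.37, and Slc39a10 is the member farthest right, at 1.40.

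Mt1 encodes the metallothionein most used as a readout of zinc exposure. Its brighter probe set read 9192 in stimulated cells and 614 in treated cells, 14.96-fold lower (log2 ratio -3.90), so that 6.68% of the signal was left. The second probe set had a signal of 404 without triptolide and 28.0 with it. The latter is under the floor, so this probe set gives a difference of at least 3.41-fold; the deposited signals as they stand differ 14.4-fold. Both probe sets were therefore lower with triptolide, the dimmer one by a bound. The brighter one carries the suffix that the manufacturer gives to probes shared between transcripts, and how far it also reads Mt2 or other copies was not tested.

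Mt2 lies beside Mt1 on chromosome 8 and encodes a closely related protein. Its single probe set read 6513 in stimulated and 631 in treated cells, 10.3-fold lower (log2 ratio -3.37), or 9.68% of the stimulated signal. Among the 10968 detected genes, Mt1 was the 4th lowest and Mt2 the 9th lowest. Among 6087 genes above the floor on each array and at 4 times the floor or more on 1 of them, Mt1 was in place 2 and Mt2 in place 6 from the lowest. The neighbours of Mt1 in that order were Hspa1b, an inducible HSP70 gene, below it (15768 to 229, log2 ratio -6.10), and Ctla4, an inhibitory receptor gene (13132.5 to 922, log2 ratio -3.83), and Tgm2, a transglutaminase gene (2716 to 219, log2 ratio -3.63), above it. Likeness here is closeness of 1 ratio between 2 arrays.

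**Figure D3:**
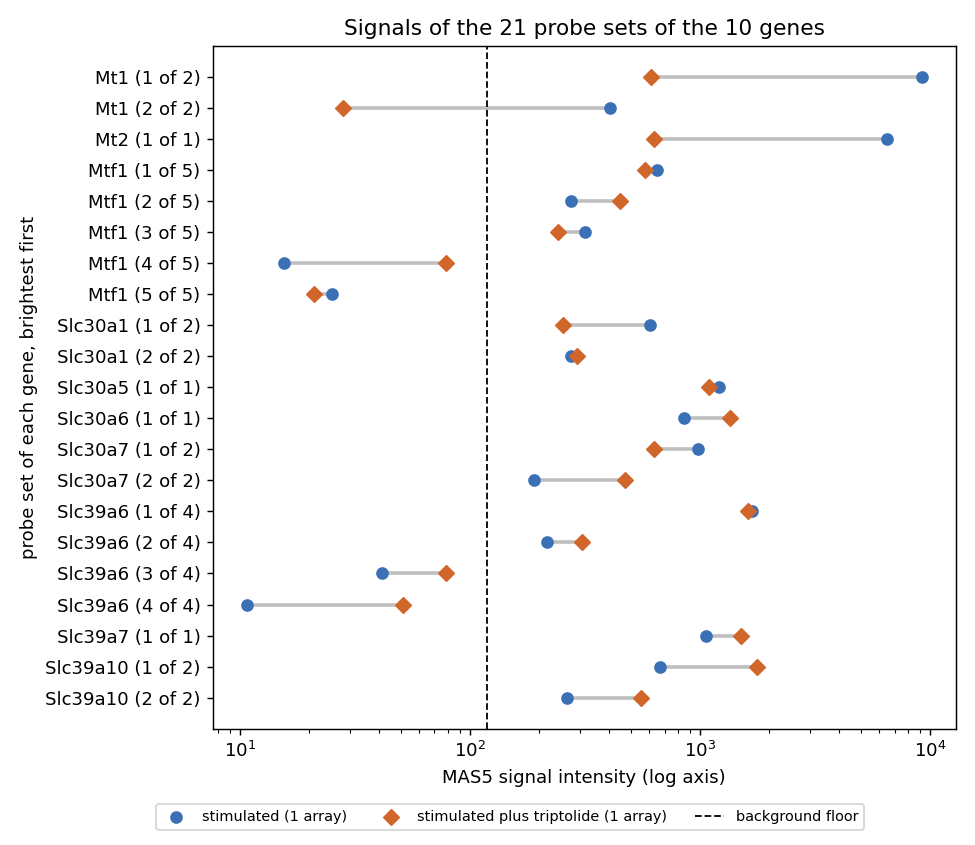
MAS5 signal intensity (x axis, log scale) of each of the 21 probe sets of the 10 genes on the stimulated array (circles) and the triptolide array (diamonds), with the background floor of 118 as a dashed line. The 3 metallothionein probe sets show the widest gaps among those that are above the floor without triptolide; the 4 probe sets under the floor on both arrays belong to Mtf1 and Slc39a6.

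Mtf1, the factor that reads zinc and activates the metallothionein genes, lay near the median gene on its brightest probe set. It had signals of 648 and 574 (log2 ratio -0.18), against -0.16 for the median gene. The second probe set had signals of 275 and 449 (0.71) and the one after it 316 and 241 (-0.39). The remaining Mtf1 probe sets were under the floor on both arrays, at 15.6 and 78.5 and at 25.1 and 21. The 3 measured probe sets thus lay on both sides of 0, and no direction is given for Mtf1.

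Probe sets of 1 gene give a view of technical precision, though not of variation between cultures. Over 3733 genes with at least 2 probe sets measured on both arrays, the log2 ratios of the brightest pair had an SD of 0.49 per probe set, and their median absolute difference was 0.37. Mt1 and Mt2 were picked for their low ratios, so their distance from 0 is not read against this spread. The log2 ratios of the other 8 members are between -1.26 and 1.40.

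Slc30a1 encodes ZnT1, which exports zinc across the plasma membrane and is itself switched on by zinc through MTF1. Its brighter probe set read 608 in stimulated and 255 in treated cells, 2.39-fold lower (log2 ratio -1.26). The other had signals of 275 and 291 (0.08). These probe sets differ by 1.34 on the log2 scale, and 6.35% of the 3733 genes had a gap as wide or wider. The lower value therefore rests on 1 of 2 probe sets, and the median of both, -0.59, lies within 2-fold.

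Slc30a5 and Slc30a6 encode partners that load zinc into the early secretory pathway. Slc30a5 had signals of 1213 and 1094 (log2 ratio -0.15), next to the median gene. Slc30a6 had signals of 852.5 and 1345 (0.66), higher with triptolide but within 2-fold. The log2 ratios of the partners differed by 0.81, and each has 1 probe set, with no other to compare. No direction is given for Slc30a5, since it was above 0 after centring the detected genes and after quantile normalization.

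Slc30a7 encodes ZnT7, a Golgi zinc transporter. Its brighter probe set had signals of 977 and 632.5 (log2 ratio -0.63) and the dimmer one 189 and 474 (1.33). One was thus lower and the other 2.51-fold higher with triptolide, and no direction is given. A gap of 1.95 or more between the brightest pair was found in 61 of the 3733 genes (1.63%), and a pair on opposite sides of 0 by at least 0.5 each in 113 (3.03%). Where in the transcript each probe set lies was not analysed here.

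**Figure D4:**
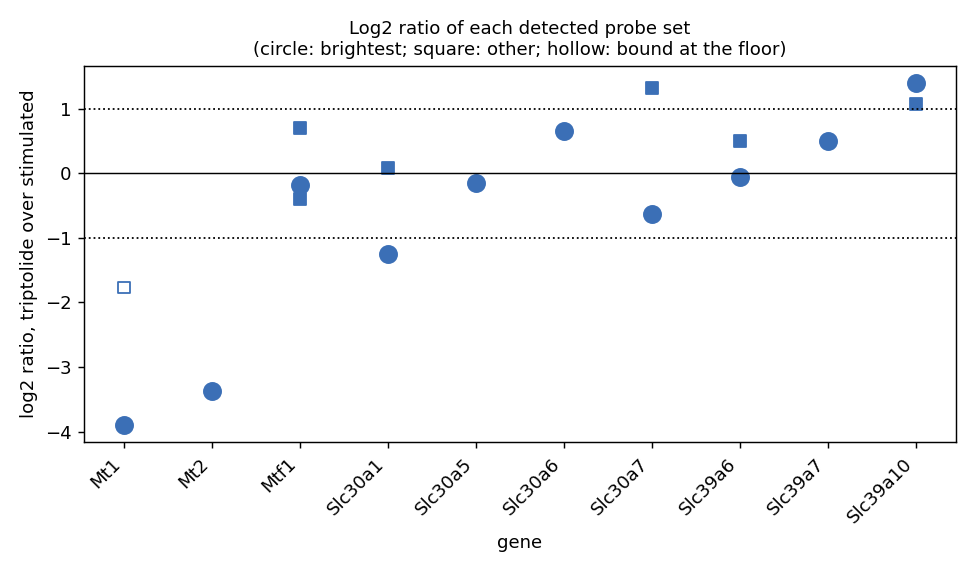
Log2 ratio (triptolide over stimulated, y axis) of the 17 detected probe sets of the 10 genes (x axis); large circles are the brightest probe set of a gene, squares the others, the hollow square a bound at the floor, and dotted lines mark 2-fold. The probe sets of Slc39a10 lie together at 1.40 and 1.08, while those of Slc30a7 lie apart at -0.63 and 1.33.

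Slc39a10 encodes ZIP10, a plasma membrane zinc importer whose gene is known to be repressed by zinc. Its probe sets had signals of 671 and 1774 (2.64-fold higher, log2 ratio 1.40) and of 263 and 554 (2.11-fold higher, 1.08). The probe sets went the same way, each past 2-fold, and differed by 0.32; 55.5% of the 3733 genes had a gap as wide or wider. Slc39a10 was the 286th highest of the detected genes.

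Slc39a6 encodes ZIP6, a plasma membrane importer and binding partner of ZIP10. Its brightest probe set had signals of 1680 and 1608 (log2 ratio -0.06) and the second 216.5 and 307 (0.50), while the remaining probe sets, at 41.4 and 78.6 and at 10.7 and 51.1, were under the floor on both arrays. The brightest probe sets of these partners thus differed, by 1.47 on the log2 scale. Slc39a7 encodes ZIP7, which releases zinc from the endoplasmic reticulum into the cytosol. Its single probe set, which carries the suffix for shared probes, had signals of 1062 and 1505 (0.50), higher with triptolide but within 2-fold. That ratio is close to the SD of 0.49 per probe set given above.

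The remaining metallothionein and zinc transporter genes gave the setting. All 19 had a probe set and 13 were detected. The 2-fold rule gave 2 lower and 2 higher, against 12.5% lower and 5.63% higher over all detected genes. Their median log2 ratio was -0.37. Slc39a8, which encodes the zinc, manganese and iron transporter ZIP8, had signals of 178 and 1208, 6.81-fold higher with triptolide (log2 ratio 2.77). Its second probe set, at 89.6 and 327, was at least 2.76-fold higher. Slc39a14, which encodes the closely related ZIP14, had signals of 1123 and 254, 4.43-fold lower (log2 ratio -2.15). Its next probe set was 3.29-fold lower and another, under the floor with triptolide, at least 2.77-fold lower, while the last was under the floor on both arrays. These relatives thus went opposite ways on all their detected probe sets.

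Slc39a1, for the plasma membrane importer ZIP1, had signals of 389 and 1091, 2.80-fold higher on a single probe set. Mt3, a metallothionein gene best known from brain, had signals of 418 and 31.4 on a single probe set, at least 3.53-fold lower. How far that probe set also reads Mt1 or Mt2 was not tested. Mt4 was under the floor on both arrays, as were Slc30a2, Slc30a8, Slc39a2, Slc39a5 and Slc39a12. After centring the detected genes or quantile normalization, Slc39a9 (321 and 582, log2 ratio 0.86) also passed 2-fold upwards.

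**Figure D5:**
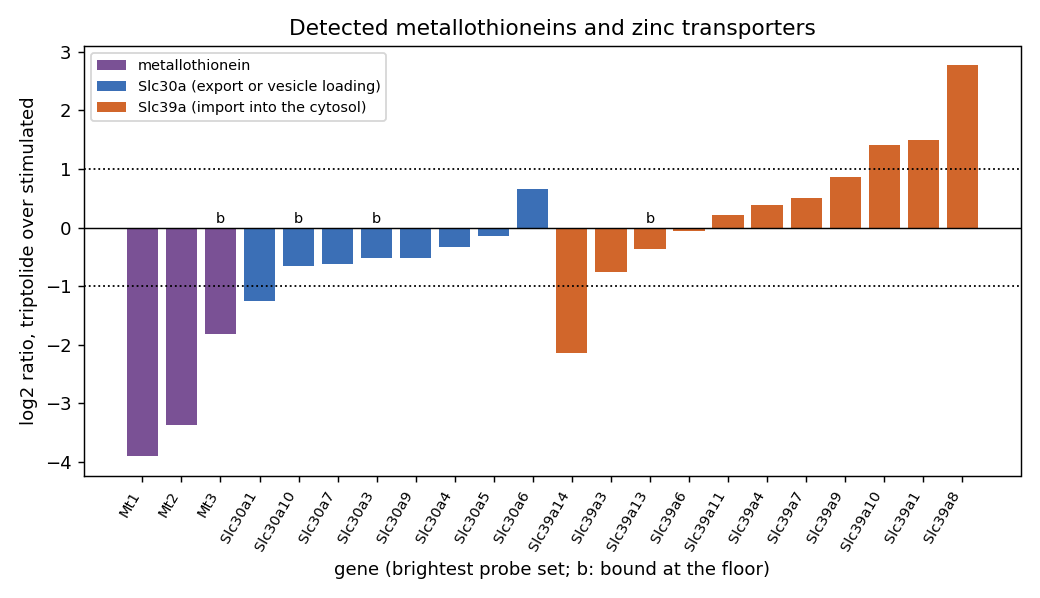
Log2 ratio (triptolide over stimulated, y axis) of the brightest probe set of each detected metallothionein, Slc30a and Slc39a gene, 1 bar per gene; b marks a bound at the floor and dotted lines mark 2-fold. The 3 metallothioneins are lower, from -3.90 to -1.82, and the Slc39a bars run from -2.15 for Slc39a14 to 2.77 for Slc39a8.

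Other genes reported as MTF1 targets were compared beside the metallothioneins. Of 7, 5 were detected and 2 were at least 2-fold lower, with a median of -0.15. Over all detected genes 12.5% were lower and 5.63% higher by that rule. Txnrd2, a mitochondrial thioredoxin reductase gene, had signals of 563 and 192 (2.93-fold lower), and its 4 probe sets had log2 ratios between -1.55 and -0.75. Ndrg1, a stress-responsive gene, had signals of 12296 and 5504 (2.23-fold lower). All 5 Ndrg1 probe sets were lower, between -1.43 and -0.98; after centring the detected genes its brightest lay within 2-fold. Selenow, a small selenoprotein gene, had signals of 9932 and 11885 (0.26), the highest ratio of this list. All of these differences were smaller than those of Mt1 and Mt2. Since Mt1 and Mt2 were picked for their low ratios, nothing is read from that order.

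Genes for the handling of other metals were mostly within 2-fold on their brightest probe sets. Of 11 detected copper genes, 2 were lower and 0 higher by the 2-fold rule on these probe sets (median -0.18). Over all detected genes the rule gave 12.5% lower and 5.63% higher. Sco2, which delivers copper to cytochrome c oxidase, had signals of 916 and 211 (4.34-fold lower), and Ccs, the copper chaperone of superoxide dismutase, 739 and 363 (2.03-fold lower). Ccs lay within 2-fold after centring or quantile normalization. On the brightest probe sets, the copper-pumping ATPase gene Atp7a had the highest ratio, 0.82 (469.5 and 832). It passed 2-fold upwards after quantile normalization. Dimmer probe sets of Atox1 had signals of 215 and 712 (3.30-fold higher) and of 143 and 388 (2.70-fold higher), while its brightest was at 0.11. A dimmer probe set of Sod1 had signals of 371.5 and 116, at least 3.14-fold lower, while its brightest was at -0.18. Of 11 detected iron genes, 0 passed 2-fold on their brightest probe sets (median -0.06). They ran from Aco1, an iron regulatory protein gene, at -0.74 (430 and 257.5) to Tfrc, the transferrin receptor gene, at 0.58 (7095 and 10612.5). The dimmer probe set of Ncoa4 had signals of 1525 and 3877, 2.54-fold higher (1.35), while its brightest was at 0.41.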

How the data were processed

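The authors deposited MAS5 signal intensities, linear values with 1 per probe set, made with MAS5 per the submitters' processing notes; no source used here gives its version or scaling. On both arrays the 2% trimmed mean of the first 100 probe sets was 2000.0, so levels may rest on those probe sets. Of 45037 probe sets, 34945 had 1 gene symbol, and 34741 of these were named through RefSeq gene numbers. Signals were raised to the floor, log2 ratios were taken, and each gene was represented by the probe set with the highest mean log2 floored signal. With 1 array per group no test was possible; differences were described by a 2-fold rule. The number of arrays limits the precision. The named genes were all members, the members of the metal lists past 2-fold with the highest and lowest of each, and the neighbours of Mt1 in the order of ratios. Housekeeping and marker genes served for scaling and for checking the cells (10 of 13 housekeeping genes had a probe set, median log2 ratio 0.16). Members and lists were chosen with earlier results of these data known. Alternatives were 3 scalings, 4 floor settings and 2 choices of probe set. The calculation was tested on simulated data, the stimulated array multiplied by known factors without noise (python 3.11.15, numpy 2.4.6, pandas 2.3.3). That checks the arithmetic only and says nothing about noise between arrays.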

Additional observations from a re-analysis of the deposited data

How the results depend on the processing

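Under 9 alternative settings, 3 members were at least 2-fold lower in 8 and 2 in the other, which takes the median of every probe set of a gene and where Slc30a1 was at -0.59. In all 9 settings 1 member was at least 2-fold higher. Without a floor, or with it lowered or raised, the members' ratios were the same by construction. Their brightest probe sets lay above the floor in each case, so those settings could not change the counts. The members' median log2 ratio ranged from -0.32, scaled on housekeeping genes, to 0.04, after quantile normalization. Mt2 lay between -3.53 and -3.20 and Slc39a10 between 1.24 and 1.59. Mt1 lay between -4.06 and -1.77; the latter, without shared probe sets, is a bound at the floor, and -2.84, the median over probe sets, averages that bound. Slc30a7 turned from -0.63 to 0.35 as the median of its probe sets. The signs of Mtf1, Slc30a5 and Slc39a6, all near 0, changed in 1, 2 and 3 settings. Without shared probe sets Slc39a7 could not be measured. No paired analysis was possible because each group has 1 array. Spread between cultures is unknown, and differences near 2-fold are the least certain.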

Other observations

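The zinc exporter and importer families, members and remaining genes together, are described here as a view taken after the values were seen. Of 8 detected Slc30a genes, 7 had a log2 ratio below 0 and 1 above (median -0.52). Of 11 detected Slc39a genes, 7 had a ratio above 0 and 4 below (median 0.38). Over all 10968 detected genes, 6603 lay below 0 and 4363 above, with a median of -0.16, so most genes are below 0 in any case. The 7 Slc30a genes include Slc30a1 and Slc30a7, whose dimmer probe sets were at 0.08 and 1.33. They also include Slc30a5, which at -0.15 lay next to the median gene. After centring the detected genes or quantile normalization the counts were 6 below and 2 above for Slc30a, and 8 above and 3 below for Slc39a. Scaled on housekeeping genes, the Slc30a counts were 7 below and 1 above and the Slc39a counts 7 above and 4 below. The difference between the families was not tested, and 3 of the ratios below 0 are bounds at the floor (Slc30a3, Slc30a10 and Slc39a13).

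The ratios of all detected genes with a promoter window were also set beside the number of metal response cores in it. Where a gene had several windows, the highest count was taken, so genes with more windows could more easily reach a high class. Of 5323 detected genes with a window and no core, 11.6% were lower and 5.94% higher with triptolide by 2-fold or more, and the median log2 ratio was -0.14. Of 2368 genes with 1 core, 13.0% were lower and 5.41% higher, with a median of -0.17. Of 869 genes with 2 cores, 12.9% were lower and 5.75% higher, with a median of -0.17. Of 347 genes with 3 or more cores, among them Mt1 and Mt2, 13.5% were lower and 6.05% higher, with a median of -0.19. The 91 genes with 4 or more cores, Mt2 among them, had 14.3% lower and 9.89% higher, with a median of -0.31. The differences between these classes were not tested. These are counts over genes of 2 arrays, and the letters alone do not show where a factor binds.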
